A study of Rattus norvegicus with 24 samples.

Results

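Glucocorticoids are the steroid hormones that the adrenal gland releases under stress and fasting, corticosterone being the main one in rats. A set of 10 genes, of which 9 are known to be induced by these hormones and the other, Nr3c1, encodes their receptor, was followed in rat heart under rotenone, a pesticide from plant roots that inhibits mitochondrial complex I. The question was whether the hearts carried a stress hormone signal. The genes were Fkbp5, Tsc22d3, Sgk1, Zbtb16, Klf9, Klf15, Cebpd, Cebpb, Nr3c1 and Mt1. They were chosen by name, with earlier results of these data known, and all 10 were measured, among 22093 genes in all. Each was read from the transcript cluster, the unit of measurement of this array, that was annotated to that gene alone, and Mt1, which had 2 such clusters, from the one with the highest mean. Male RccHan Wistar rats aged 7 to 8 weeks received feed with 400 ppm rotenone or untreated feed for 1, 3 or 14 days, which gave 6 groups with 4 arrayed rats each, 24 in all. RNA came from the apex of the left ventricle, 1 rat per Affymetrix Rat Transcriptome Array. No pair-fed group is described, so rotenone and any change of appetite it brings cannot be told apart. Hormone levels in blood were not analysed here.

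All values below are log2 intensities, 1 unit being a doubling, and every difference is rotenone minus control of the same day. Adjusted p-values come from limma with Benjamini-Hochberg adjustment over 68842 transcript clusters, and a difference was called at an adjusted p under 0.05. The negative control probes had a 95th percentile of 8.44, taken as the background bound. Of the 10 genes, 5 had means above it (Tsc22d3, Zbtb16, Klf9, Cebpd and Nr3c1) and 5 below it (Fkbp5, Sgk1, Klf15, Cebpb and Mt1), where a difference may be understated. All 8 measured cardiomyocyte markers lay above the bound, and array medians lay between 4.94 and 5.19. Of 9 measured lymphocyte markers, 1 lay above it.

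In the resting cell the glucocorticoid receptor is held in the cytoplasm by heat shock protein chaperones. When hormone binds, it moves to the nucleus and switches on genes that carry its response elements, while it dampens inflammatory genes. Fkbp5 and Tsc22d3 are among the most widely used readouts of this, because they respond to the hormone in many tissues, and Klf15 and Klf9 tie it to amino acid and energy metabolism.

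No member passed the threshold on any single day. The counts were 0 of 10 on day 1, 0 of 10 on day 3 and 0 of 10 on day 14, where 0.49%, 0.84% and 2.89% of all transcript clusters and 1.11%, 2.03% and 5.82% of all genes were called. At an unadjusted p under 0.05 the counts were 2, 1 and 2 of 10, against 11.6%, 15.3% and 19.9% of all genes. The factorial test that the study's methods name, with its own thresholds and a minimum change of 1.8-fold, called 0 on each day. Its share over all genes was not computed, so that 0 has no background to be read against. The median difference over the 10 genes was 0.10 on day 1, 0.17 on day 3 and 0.17 on day 14, against 0.014, 0.0061 and -0.00053 over all genes. Averaged over the 3 days, Mt1 was called and the other 9 were not, 1 of 10 against 5.59% of transcript clusters and 11.9% of genes. The effect of rotenone was not called as different between days for any member (0 of 10, with 0.0145% of transcript clusters called, and 0 of 10 against 7.07% at an unadjusted p under 0.05), and no member differed between control rats of day 14 and of day 1 (0 of 10, with 0% called, and 0 of 10 against 7.28% at an unadjusted p under 0.05).

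**Figure D1:**
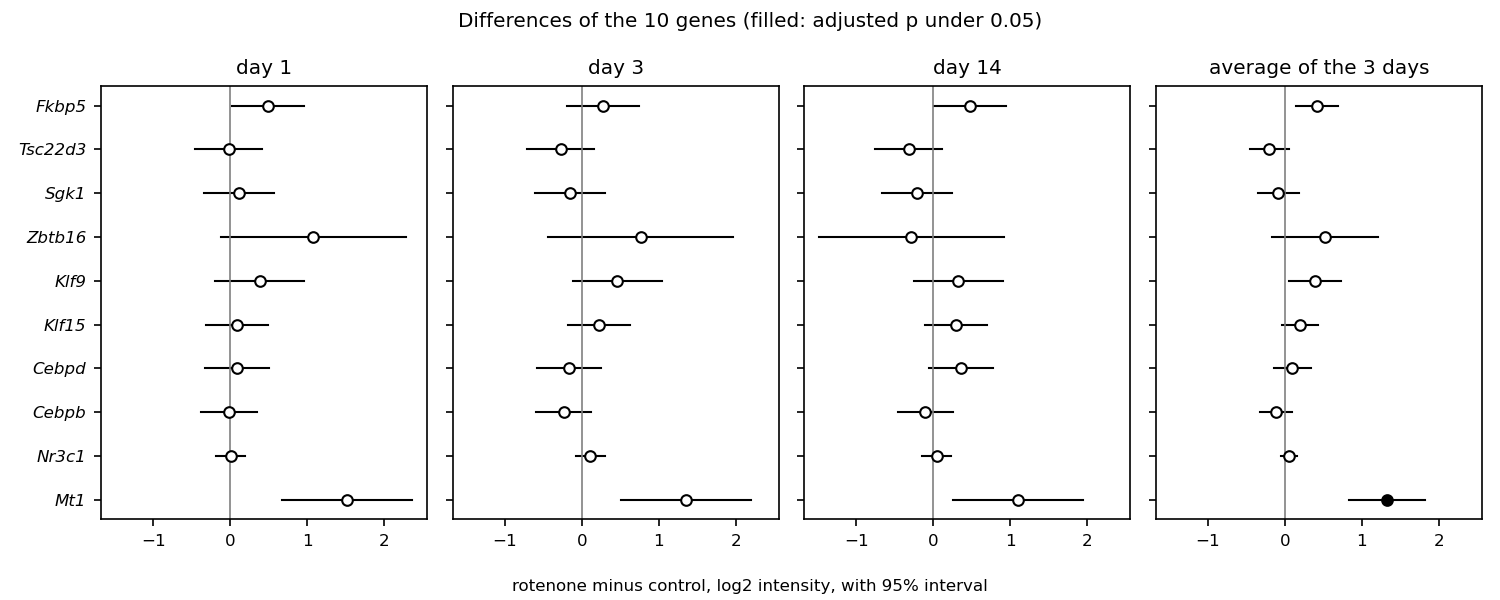
Difference of each of the 10 genes (rotenone minus control, log2 intensity) on days 1, 3 and 14 and averaged over the 3 days. Points are limma estimates, lines 95% intervals, and the filled point has an adjusted p under 0.05. Mt1 stands to the right on each day (1.52, 1.36 and 1.10), and its average of 1.33 is the filled one.

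Fkbp5 encodes a co-chaperone that binds the receptor complex and lowers its affinity for hormone, so that its induction forms a short feedback loop. In order of rat number, 1 to 4, Fkbp5 read 8.04, 8.69, 7.98 and 7.79 in rotenone rats, against 7.57, 7.60, 7.90 and 7.47 in control rats on day 1. On day 3 Fkbp5 read 8.21, 8.27, 7.63 and 7.44 in rotenone rats, against 7.52, 7.66, 7.83 and 7.43 in control rats. On day 14 it read 7.73, 8.73, 8.46 and 8.75 in rotenone rats, against 7.88, 8.10, 8.18 and 7.62 in control rats. The rotenone mean was the higher one on each day, but the 2 groups overlapped every time, since rotenone rat 4 on day 1, rats 3 and 4 on day 3 and rat 1 on day 14 lay within the control range. Fkbp5 averaged 8.13 ± 0.39 in rotenone rats and 7.63 ± 0.18 in control rats on day 1, 7.89 ± 0.41 in rotenone rats and 7.61 ± 0.18 in control rats on day 3 and 8.42 ± 0.48 in rotenone rats and 7.95 ± 0.25 in control rats on day 14 (SD, n = 4 each). The differences were 0.49 (95% interval 0.021 to 0.96, adjusted p = 0.579) on day 1, 0.28 (95% interval -0.19 to 0.75, adjusted p = 0.777) on day 3 and 0.47 (95% interval 0.0024 to 0.94, adjusted p = 0.335) on day 14. Averaged over the days, Fkbp5 differed by 0.41 (95% interval 0.14 to 0.69, adjusted p = 0.0698). That average passed the threshold without rotenone rat 4 of day 3 (adjusted p = 0.0393) and without rotenone rat 1 of day 14 (adjusted p = 0.0107). Each was the lowest rotenone rat of its group, so that leaving it out raised the difference. These were the only 2 of the 24 fits leaving out 1 array to pass, and the adjusted p of the rest reached 0.124.

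**Figure D2:**
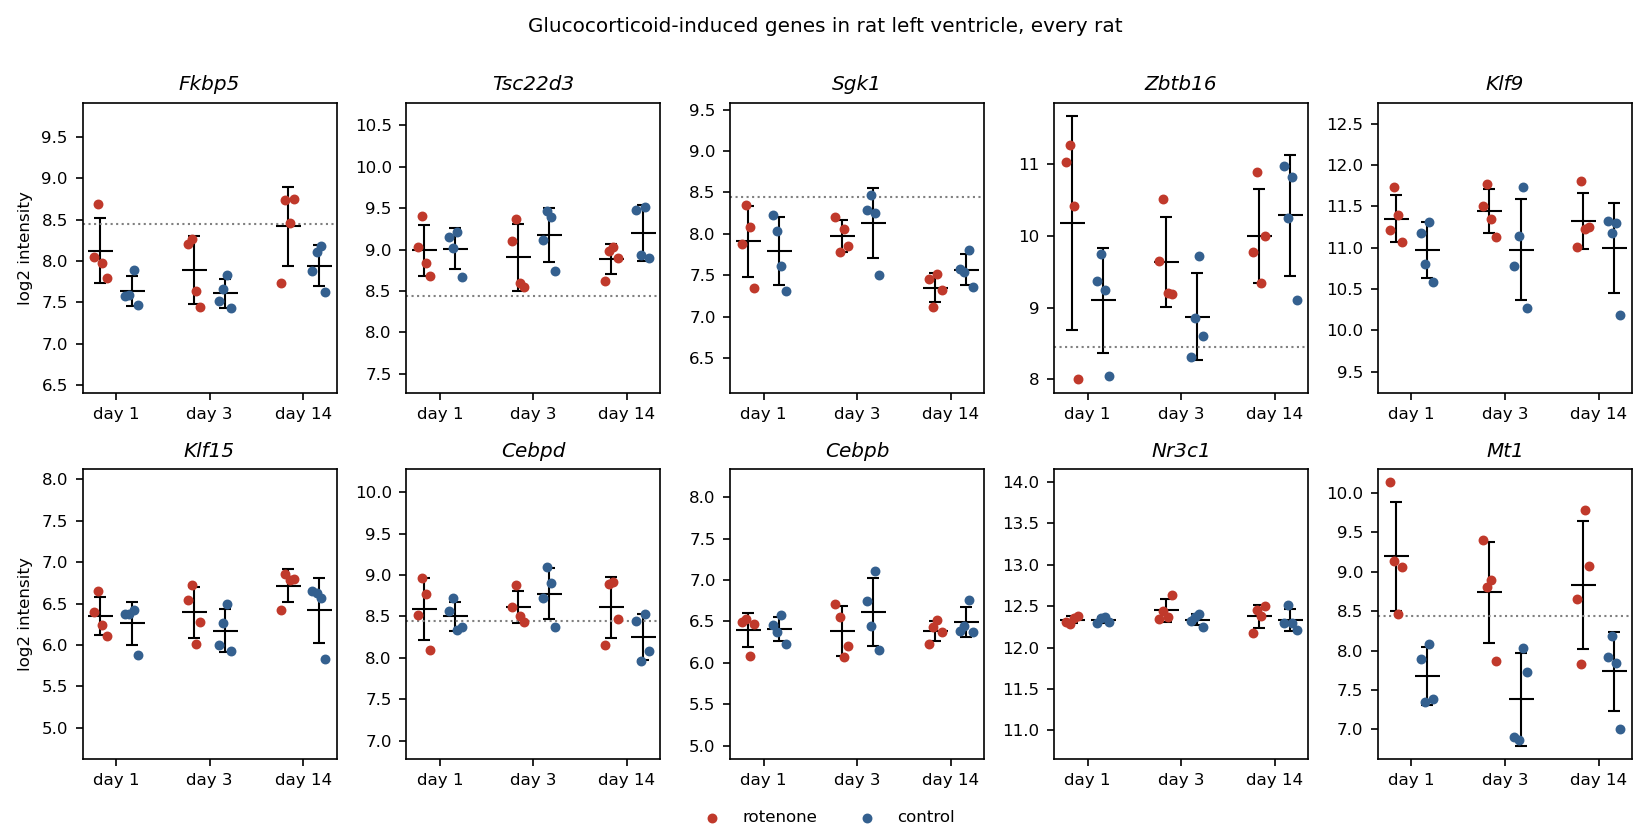
Log2 intensity of the 10 genes in every rat on days 1, 3 and 14, rotenone in red left of control in blue. Points are rats in order of rat number, bars the mean and SD of 4 rats, and the dotted line the background bound of 8.44, drawn where it falls in the panel. Mt1 separates the groups on day 1 (8.46 to 10.14 in rotenone rats, 7.34 to 8.08 in control rats), and in every other pair of groups the values overlap.

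Tsc22d3 encodes GILZ, a leucine zipper protein that carries part of the anti-inflammatory action of glucocorticoids. On day 1 Tsc22d3 read 9.03, 9.40, 8.84 and 8.68 in rotenone rats, against 9.15, 9.01, 9.21 and 8.66 in control rats. On day 3 Tsc22d3 read 9.11, 9.37, 8.60 and 8.55 in rotenone rats, against 9.12, 9.46, 9.39 and 8.74 in control rats. On day 14 Tsc22d3 read 8.63, 8.98, 9.03 and 8.90 in rotenone rats, against 9.47, 8.93, 9.52 and 8.89 in control rats. This gene, the other standard readout, overlapped between the groups each time, and its estimates lay near 0 on day 1 and below 0 on days 3 and 14: -0.021 (95% interval -0.46 to 0.41, adjusted p = 0.993) on day 1, -0.27 (95% interval -0.71 to 0.16, adjusted p = 0.747) on day 3 and -0.32 (95% interval -0.75 to 0.12, adjusted p = 0.551) on day 14. Its average difference over the days was -0.20 (95% interval -0.46 to 0.047, adjusted p = 0.426).

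Sgk1 encodes a kinase that controls sodium channels and transporters and is induced through the mineralocorticoid receptor as well. Its values on day 1 were 7.87, 8.34, 8.08 and 7.34 in rotenone rats, against 8.22, 8.03, 7.61 and 7.31 in control rats. On day 3 Sgk1 read 8.20, 7.78, 8.05 and 7.85 in rotenone rats, against 8.28, 8.46, 8.25 and 7.51 in control rats. On day 14 Sgk1 read 7.45, 7.11, 7.52 and 7.32 in rotenone rats, against 7.57, 7.54, 7.80 and 7.35 in control rats. The groups overlapped on all 3 days, and the means of both day 14 groups lay below those of the 4 earlier groups. Its differences were 0.11 (95% interval -0.34 to 0.57, adjusted p = 0.944) on day 1, -0.16 (95% interval -0.61 to 0.30, adjusted p = 0.908) on day 3 and -0.22 (95% interval -0.67 to 0.24, adjusted p = 0.755) on day 14.

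Zbtb16 encodes PLZF, a zinc finger repressor that rises strongly with glucocorticoids in many cell types. On day 1 Zbtb16 read 11.04, 11.26, 10.42 and 8.00 in rotenone rats, against 9.37, 9.74, 9.24 and 8.05 in control rats. On day 3 Zbtb16 read 9.65, 10.52, 9.20 and 9.18 in rotenone rats, against 8.31, 8.85, 9.72 and 8.60 in control rats. On day 14 Zbtb16 read 9.78, 10.89, 9.34 and 9.999 in rotenone rats, against 10.97, 10.25, 10.82 and 9.11 in control rats. It was the most variable of the 10 genes between rats of one group, with a residual SD of 0.88. Rotenone rats 1, 2 and 3 of day 1 lay above every control of that day, while rat 4 lay below them all. The differences were 1.08 (95% interval -0.12 to 2.28, adjusted p = 0.665) on day 1, 0.76 (95% interval -0.44 to 1.96, adjusted p = 0.741) on day 3 and -0.29 (95% interval -1.49 to 0.91, adjusted p = 0.898) on day 14, and intervals this wide hold both a large rise and no change.

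Klf9 encodes a Krüppel-like factor that takes part in feedback on hormone and clock genes. On day 1 Klf9 read 11.22, 11.73, 11.39 and 11.06 in rotenone rats, against 11.18, 10.80, 11.31 and 10.59 in control rats. On day 3 Klf9 read 11.51, 11.77, 11.35 and 11.13 in rotenone rats, against 10.78, 11.14, 11.73 and 10.27 in control rats. On day 14 Klf9 read 11.01, 11.81, 11.22 and 11.25 in rotenone rats, against 11.32, 11.18, 11.30 and 10.19 in control rats. Control rat 4 was the lowest rat of all 8 on each day, and the groups overlapped. The differences were of similar size on the 3 days, 0.38 (95% interval -0.20 to 0.96, adjusted p = 0.795) on day 1, 0.46 (95% interval -0.12 to 1.04, adjusted p = 0.634) on day 3 and 0.32 (95% interval -0.26 to 0.90, adjusted p = 0.689) on day 14, and their average was 0.39 (95% interval 0.054 to 0.72, adjusted p = 0.199).

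Klf15 encodes the heart and muscle factor through which glucocorticoids raise branched-chain amino acid breakdown. On day 1 Klf15 read 6.40, 6.65, 6.25 and 6.11 in rotenone rats, against 6.37, 6.38, 6.43 and 5.88 in control rats. On day 3 Klf15 read 6.55, 6.73, 6.02 and 6.28 in rotenone rats, against 6.00, 6.27, 6.50 and 5.93 in control rats. On day 14 Klf15 read 6.42, 6.86, 6.78 and 6.80 in rotenone rats, against 6.66, 6.63, 6.57 and 5.83 in control rats. All these values lay below the background bound. The groups overlapped, with differences of 0.091 (95% interval -0.31 to 0.49, adjusted p = 0.948) on day 1, 0.22 (95% interval -0.18 to 0.62, adjusted p = 0.803) on day 3 and 0.29 (95% interval -0.11 to 0.70, adjusted p = 0.549) on day 14.

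Cebpd and Cebpb encode CCAAT/enhancer binding proteins, which respond to glucocorticoids and to cytokines. On day 1 Cebpd read 8.52, 8.97, 8.77 and 8.10 in rotenone rats, against 8.57, 8.72, 8.34 and 8.37 in control rats. On day 3 Cebpd read 8.61, 8.88, 8.51 and 8.44 in rotenone rats, against 8.73, 9.10, 8.90 and 8.37 in control rats. On day 14 Cebpd read 8.15, 8.89, 8.92 and 8.47 in rotenone rats, against 8.44, 7.96, 8.52 and 8.08 in control rats. The groups overlapped on each day, and the sign of the difference varied: 0.091 (95% interval -0.33 to 0.51, adjusted p = 0.95) on day 1, -0.16 (95% interval -0.58 to 0.25, adjusted p = 0.886) on day 3 and 0.36 (95% interval -0.059 to 0.77, adjusted p = 0.444) on day 14. For the related gene, the values of day 1 were 6.49, 6.53, 6.09 and 6.47 in rotenone rats, against 6.46, 6.37, 6.58 and 6.23 in control rats. On day 3 Cebpb read 6.71, 6.55, 6.07 and 6.20 in rotenone rats, against 6.75, 6.45, 7.11 and 6.15 in control rats. On day 14 Cebpb read 6.22, 6.43, 6.51 and 6.37 in rotenone rats, against 6.39, 6.45, 6.75 and 6.37 in control rats. Cebpb lay below the background bound in every rat, and its estimates were below 0, -0.017 (95% interval -0.38 to 0.34, adjusted p = 0.993) on day 1, -0.23 (95% interval -0.59 to 0.13, adjusted p = 0.732) on day 3 and -0.11 (95% interval -0.46 to 0.25, adjusted p = 0.869) on day 14.

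Nr3c1, the receptor itself, varied least of the 10 genes between rats of one group, with a residual SD of 0.102. On day 1 Nr3c1 read 12.31, 12.29, 12.36 and 12.38 in rotenone rats, against 12.29, 12.35, 12.36 and 12.31 in control rats. On day 3 Nr3c1 read 12.35, 12.44, 12.37 and 12.64 in rotenone rats, against 12.32, 12.37, 12.41 and 12.25 in control rats. On day 14 Nr3c1 read 12.18, 12.45, 12.38 and 12.50 in rotenone rats, against 12.29, 12.52, 12.29 and 12.22 in control rats. The values overlapped on each day, and the intervals were narrow: 0.0041 (95% interval -0.18 to 0.19, adjusted p = 0.997) on day 1, 0.11 (95% interval -0.076 to 0.30, adjusted p = 0.772) on day 3 and 0.045 (95% interval -0.14 to 0.23, adjusted p = 0.898) on day 14. Averaged over the days, the interval of the difference ran from -0.055 to 0.16, so a change of receptor transcript larger than 0.16 in either direction lay outside it.

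Mt1 encodes metallothionein 1, a small cysteine-rich protein that binds zinc and copper and is induced by metals, oxidants and glucocorticoids. On day 1 Mt1 read 10.14, 9.13, 8.46 and 9.06 in rotenone rats, against 7.90, 7.34, 8.08 and 7.38 in control rats. On day 3 Mt1 read 9.40, 8.80, 8.89 and 7.87 in rotenone rats, against 6.90, 6.87, 8.03 and 7.73 in control rats. On day 14 Mt1 read 8.65, 7.83, 9.78 and 9.07 in rotenone rats, against 7.91, 8.18, 7.84 and 7.01 in control rats. All 4 rotenone rats of day 1 lay above all 4 controls, which held for no other member on any day, while 4.38% of all genes were separated upward on that day and 10.1% in either direction. On days 3 and 14 a single rotenone rat, number 4 and number 2, lay within the control range. Mt1 averaged 9.20 ± 0.69 in rotenone rats and 7.68 ± 0.37 in control rats on day 1, 8.74 ± 0.64 in rotenone rats and 7.38 ± 0.59 in control rats on day 3 and 8.83 ± 0.81 in rotenone rats and 7.74 ± 0.51 in control rats on day 14 (SD, n = 4 each). The differences were 1.52 (95% interval 0.68 to 2.37, adjusted p = 0.124) on day 1, 1.36 (95% interval 0.51 to 2.20, adjusted p = 0.141) on day 3 and 1.10 (95% interval 0.25 to 1.94, adjusted p = 0.171) on day 14. Averaged over the days, Mt1 was 2.51-fold higher with rotenone (1.33, 95% interval 0.84 to 1.81, adjusted p = 0.000987). Over all days its values ran from 7.83 to 10.14 with a median of 8.98 in the 12 rotenone rats, and from 6.87 to 8.18 with a median of 7.78 in the 12 control rats.

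Which locus this Mt1 reading comes from is uncertain. The cluster's identifier carries the chromosome number 17, whereas RefSeq (GRCr8) places Mt1 on chromosome 19 and a pseudogene, Mt1-ps3, on chromosome 17. The identifier's digits matched the RefSeq chromosome for 21589 of 21800 genes (99.0%) and for the other 9 members. The second cluster annotated to Mt1 carries chromosome 19 and had a mean of 5.15, against 8.26 for the one used, which is why it was not chosen. In it the values of day 1 were 5.45, 5.00, 5.24 and 5.50 in rotenone rats, against 4.88, 4.83, 5.04 and 4.86 in control rats. On day 3 this second cluster read 5.36, 5.31, 5.27 and 4.98 in rotenone rats, against 4.83, 4.95, 5.17 and 5.09 in control rats. On day 14 it read 5.34, 5.39, 5.56 and 5.40 in rotenone rats, against 4.90, 5.44, 4.88 and 5.02 in control rats. Rotenone rats mostly sat above the controls here too, with overlap on each day, and the differences were 0.39 (95% interval 0.12 to 0.67, adjusted p = 0.314) on day 1, 0.22 (95% interval -0.055 to 0.49, adjusted p = 0.63) on day 3 and 0.36 (95% interval 0.089 to 0.63, adjusted p = 0.161) on day 14. Averaged over the days, the second cluster was called as well, with a difference of 0.32 (95% interval 0.17 to 0.48, adjusted p = 0.011). Metallothionein pseudogenes resemble the gene closely, so probes of one copy may bind transcripts of another.

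**Figure D3:**
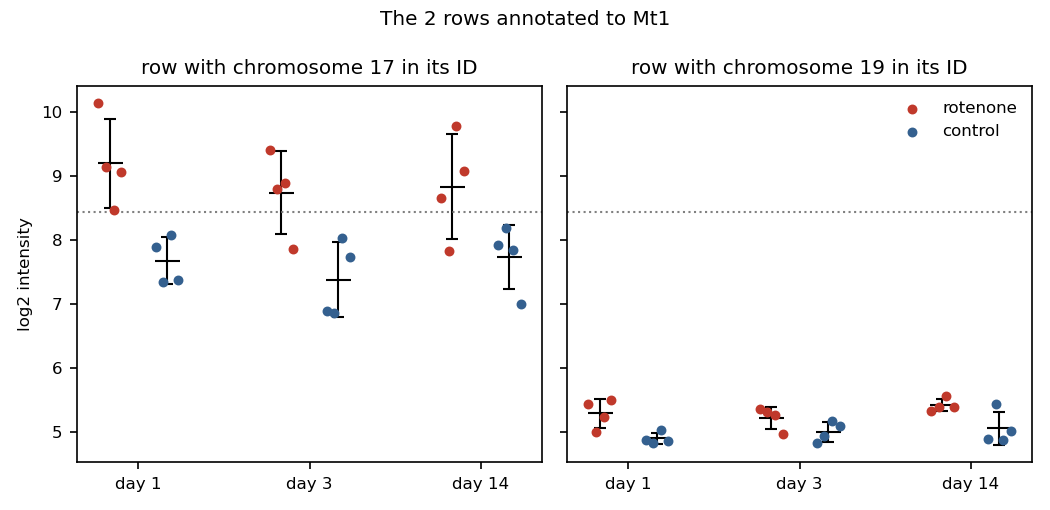
Log2 intensity of the 2 transcript clusters annotated to Mt1 in every rat, rotenone in red left of control in blue, with the mean and SD of 4 rats. The cluster with chromosome 17 in its identifier (left) spans 6.87 to 10.14, and the one with chromosome 19 (right) stays between 4.83 and 5.56, below the background bound of 8.44 (dotted).

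The metallothionein promoters are shown because Mt1 was the member that rose, and because they carry metal response elements, at which the zinc sensor Mtf1 binds. The bases are those from 250 before the gene's start up to the start, from RefSeq (GRCr8), on the minus strand, at chr19:10832976-10833225 for Mt1 and chr19:10838709-10838958 for Mt2A, a second metallothionein gene nearby. Capitals mark the core of the metal response element on either strand, TGCACNC or TGCGCNC, where N is any base.
Mt1: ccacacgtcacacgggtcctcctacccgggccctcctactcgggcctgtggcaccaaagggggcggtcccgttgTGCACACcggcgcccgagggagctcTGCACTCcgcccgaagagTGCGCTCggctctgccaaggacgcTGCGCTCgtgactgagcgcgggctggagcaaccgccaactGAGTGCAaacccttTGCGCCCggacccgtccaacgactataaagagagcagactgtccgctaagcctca
Mt2A: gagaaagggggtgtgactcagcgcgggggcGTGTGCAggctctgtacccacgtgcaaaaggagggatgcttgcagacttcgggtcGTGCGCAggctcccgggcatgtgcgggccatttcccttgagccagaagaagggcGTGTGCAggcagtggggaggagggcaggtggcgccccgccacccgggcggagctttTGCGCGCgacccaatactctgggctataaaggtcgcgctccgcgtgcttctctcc
Mt1 held 6 such cores within the 300 bases from 250 before to 50 after its start, and Mt2A held 4. At least 1 core stood in 24.2% of 33469 promoters of that length, and 6 or more in 13 of them (0.0388%). Of the 10 genes, 8 matched the promoter table, with 13 promoters between them, and Zbtb16 and Cebpd did not. None of the 13 held a full glucocorticoid response element, spelled AGAACA, any 3 bases, then TGTTCT, which 5 of the 33469 promoters held. None held its 6-base left part, AGAACA, on either strand either, a motif found in 20.7% of promoters. The Klf15 promoter held 1 E-box, CACGTG, the motif that clock factors bind, which 6.42% of promoters held. These matches describe the letters of a short window, and many known receptor sites lie outside it.

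Mt2A was not called on any single day. On day 1 Mt2A read 8.41, 7.30, 7.25 and 7.36 in rotenone rats, against 6.84, 6.62, 7.07 and 6.39 in control rats. On day 3 Mt2A read 7.24, 7.21, 7.00 and 6.73 in rotenone rats, against 7.00, 6.76, 8.77 and 6.91 in control rats. On day 14 Mt2A read 7.22, 7.55, 8.22 and 8.04 in rotenone rats, against 6.53, 7.13, 7.55 and 6.99 in control rats. A single control rat of day 3, number 3, was the brightest of all, and the differences were 0.85 (95% interval 0.12 to 1.59, adjusted p = 0.505) on day 1, -0.31 (95% interval -1.04 to 0.42, adjusted p = 0.873) on day 3 and 0.71 (95% interval -0.027 to 1.44, adjusted p = 0.364) on day 14. Of the 6 metal response genes, the metal importer Slc39a14 was lower on day 14 (-0.50, 95% interval -0.75 to -0.26, adjusted p = 0.0203) and none was called on days 1 and 3. Of all genes, 3.59% fell on day 14. The median difference of the metal response list was -0.15 on day 1, -0.26 on day 3 and -0.10 on day 14. On the 3-day average 2 of these 6 genes fell and none rose, where 7.22% of all genes fell.

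Within the groups, most of the 10 genes were high or low in the same rats. In the control groups the rat numbered 4 held the lowest value in 24 of 30 cases, a case being 1 gene in 1 group, and the highest in none, while rat 3 held the highest in 19. In the rotenone groups rat 2 held the highest value in 17 of 30 cases and rat 4 the lowest in 13. Over all genes, control rat 4 was the lowest in 25.3% of cases and control rat 3 the highest in 26.8%. Rotenone rat 2 was the highest in 23.3% and rotenone rat 4 the lowest in 25.9%. The 30 cases are not independent, because the 10 genes were measured in the same rats. For 6 of the 10 genes (Fkbp5, Tsc22d3, Sgk1, Klf9, Klf15 and Cebpb) number 4 was the lowest in all 3 control groups, which held for 3.97% of all genes, while numbers 1, 2 and 3 were the lowest in all 3 for 1.47%, 1.10% and 1.54% of all genes. The median deviation of the 10 genes from the group mean was -0.32, -0.34 and -0.32 in rat 4 of the 3 control groups. That of all genes was -0.010, 0.0011 and 0.022, and lay between -0.045 and 0.038 over the 24 arrays. Array-wide normalization tends to hold such medians close together, although the array medians still ran from 4.94 to 5.19. What the rat numbers stand for is not given in the sources used here, and rats of different days are different animals. Without rat 4 of every group, 3 rats a group being left, no member was called on any single day, and the average difference of Mt1 was 1.34 (adjusted p = 0.0124) and that of Fkbp5 0.39 (adjusted p = 0.182). Number 4 was also the lowest in all 3 control groups for 11 of 38 other glucocorticoid-induced genes, 5 of 16 immediate early genes, 6 of 24 near relatives of the members and 3 of 17 clock genes. The same held for 1 of 12 interleukin 6 signalling genes and 1 of 8 genes linked to Klf15. It held for none of 13 genes that assist the receptor, 14 inflammatory genes and 6 metal response genes.

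**Figure D4:**
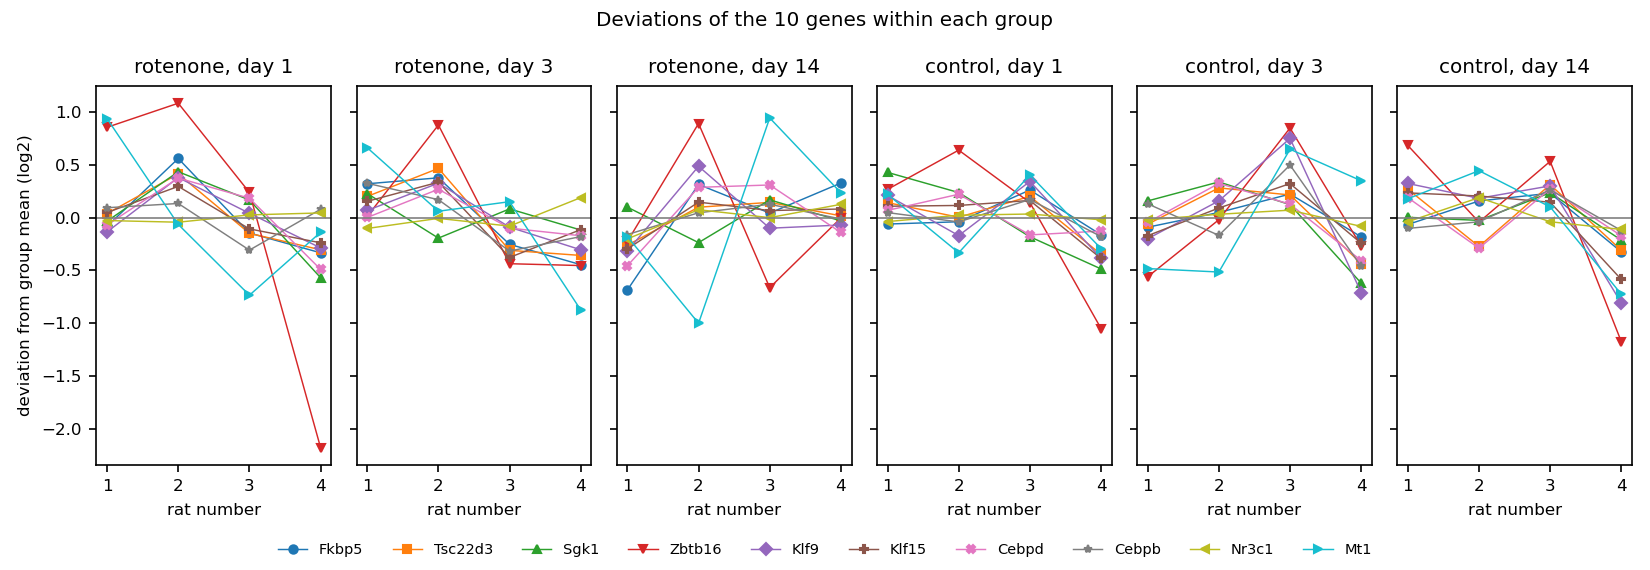
Deviation of each of the 10 genes from its group mean (log2) for rats 1 to 4 of each group, the 3 rotenone groups left of the 3 control groups. Lines join the values of 1 gene. In the control panels rat 4 lies low, the lowest in 24 of 30 cases, while in the rotenone panels rat 2 is the highest in 17 of 30.

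After the group means were removed, 21 of the 45 pairs of members had a Pearson r above 0.5 over the 24 arrays. Fkbp5, Tsc22d3, Zbtb16, Klf9 and Klf15 formed 10 pairs with r between 0.60 and 0.85, and the highest was that of Klf9 with Klf15. Cebpd varied with each of these genes to a similar degree, with r from 0.60 (Klf15) to 0.78 (Tsc22d3), so the block was not particular to them. Nr3c1 stood apart, with r between -0.12 and 0.38, and so did Mt1, with r between -0.12 and 0.41. These are descriptions over arrays that share groups, and no test was made of them. Fkbp5 and Tsc22d3 thus varied together within groups (r = 0.76), although their mean differences between rotenone and control had opposite signs.

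Among genes above the background bound, the 5 whose levels followed Fkbp5 most closely over the 24 arrays were Sesn1 (Pearson r = 0.92, and 0.90 once group means were removed), Tinagl1 (0.89 and 0.90), Tmtc1 (0.88 and 0.82), Fmo2 (0.88 and 0.84) and Bbs2 (0.87 and 0.80). The median r with Fkbp5 over all genes was -0.025, and 95% of genes had an r below 0.50 once group means were removed. Sesn1, a FoxO and p53 target that restrains mTORC1, also belonged to the list of other glucocorticoid-induced genes described below. On day 1 Sesn1 read 11.19, 11.71, 11.04 and 10.98 in rotenone rats, against 10.69, 10.70, 11.01 and 10.38 in control rats. On day 3 Sesn1 read 11.54, 11.59, 10.86 and 10.84 in rotenone rats, against 10.60, 10.62, 11.00 and 10.29 in control rats. On day 14 Sesn1 read 11.24, 11.84, 11.42 and 11.65 in rotenone rats, against 11.18, 11.28, 11.47 and 10.58 in control rats. Its group means were higher with rotenone on each day, and its average over the days was called (0.51, 95% interval 0.24 to 0.78, adjusted p = 0.019). Because Sesn1 was named for its likeness to Fkbp5 in these same arrays, a difference in the same direction as Fkbp5 is no separate evidence.

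A wider list of 38 other genes known to be induced by glucocorticoids, all measured, was called in part. Pdk4 and Angptl4 rose on day 1, Ptgds on day 3 and Mertk on day 14, and Cdkn1a fell on day 14, which makes 2, 1 and 2 of 38 genes on the 3 days, against 1.11%, 2.03% and 5.82% of all genes. The counts at an unadjusted p under 0.05, in either direction, were 9, 14 and 9 of 38, against 11.6%, 15.3% and 19.9% of all genes. The median difference of the list was 0.11, -0.066 and 0.060 on days 1, 3 and 14. Pdk4 encodes the kinase that shuts pyruvate out of the citric acid cycle, and Angptl4 an inhibitor of lipoprotein lipase, and both are induced by fatty acids in fasting as well. On day 1 Pdk4 read 18.55, 17.74, 18.27 and 17.87 in rotenone rats, against 14.25, 13.81, 14.80 and 13.49 in control rats. The rise was 4.02 (95% interval 2.76 to 5.28, adjusted p = 0.0022). On day 3 Pdk4 read 16.21, 16.09, 16.81 and 16.31 in rotenone rats, against 14.07, 13.22, 16.91 and 13.50 in control rats. On day 14 Pdk4 read 16.47, 16.33, 16.52 and 14.38 in rotenone rats, against 14.40, 13.07, 14.97 and 13.75 in control rats. Control rat 3 of day 3 and rotenone rat 4 of day 14 kept those 2 days from separating, and the differences there were 1.93 (95% interval 0.67 to 3.19, adjusted p = 0.173) and 1.88 (95% interval 0.62 to 3.14, adjusted p = 0.105). Without that control rat the day 3 difference was 2.76 (adjusted p = 0.00509) and the day 14 one stayed at 1.88, now called (adjusted p = 0.0187). That was the only 1 of the 24 fits leaving out 1 array to call either day. Over those fits the day 3 difference went as low as 1.53, and the adjusted p as high as 0.383 on day 3 and 0.255 on day 14.

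On day 1 Angptl4 read 9.87, 7.13, 8.18 and 7.37 in rotenone rats, against 5.52, 5.21, 5.53 and 5.78 in control rats. On day 3 Angptl4 read 6.71, 6.51, 7.14 and 7.02 in rotenone rats, against 5.57, 5.55, 6.40 and 5.46 in control rats. On day 14 Angptl4 read 6.71, 7.58, 8.18 and 5.70 in rotenone rats, against 5.49, 5.61, 5.84 and 5.77 in control rats. All but 1 of these values, that of rotenone rat 1 on day 1, lay below the background bound of 8.44, so the differences may be understated. The groups separated on days 1 and 3, as they did, in either direction, for 10.1% and 12.8% of all genes, and the differences were 2.63 (95% interval 1.66 to 3.60, adjusted p = 0.00777) on day 1, 1.10 (95% interval 0.13 to 2.08, adjusted p = 0.4) on day 3 and 1.37 (95% interval 0.39 to 2.34, adjusted p = 0.132) on day 14. That of day 14 was called without rotenone rat 1 of day 1 (1.37, adjusted p = 0.0458) and without rotenone rat 4 of day 14 (1.81, adjusted p = 0.0471). Without rat 4 of every group, the day 1 differences were 3.90 for Pdk4 (adjusted p = 0.0593) and 2.98 for Angptl4 (adjusted p = 0.0552), and neither was called.

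Cdkn1a, the cell cycle inhibitor p21 and also a p53 target, lay above the controls on day 1 and below them on day 14. On day 1 Cdkn1a read 10.23, 10.45, 9.92 and 9.81 in rotenone rats, against 9.58, 9.26, 9.79 and 8.46 in control rats. On day 3 Cdkn1a read 9.69, 9.28, 8.66 and 7.69 in rotenone rats, against 9.67, 9.71, 10.81 and 8.96 in control rats. On day 14 Cdkn1a read 8.76, 7.33, 7.58 and 7.17 in rotenone rats, against 10.09, 10.50, 10.54 and 9.24 in control rats. The rats of the 2 groups did not overlap on day 1 or on day 14, in opposite directions. A lack of overlap, in either direction, held for 10.1% of all genes on day 1 and 11.4% on day 14. The differences were 0.83 (95% interval -0.074 to 1.74, adjusted p = 0.655) on day 1, -0.96 (95% interval -1.86 to -0.050, adjusted p = 0.456) on day 3 and -2.38 (95% interval -3.29 to -1.47, adjusted p = 0.00386) on day 14. The test of a difference between days did not pass the threshold (adjusted p = 0.121).

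Ptgds, which makes prostaglandin D2, lay below the background bound. On day 3 Ptgds read 7.25, 6.78, 6.61 and 6.60 in rotenone rats, against 5.87, 5.89, 5.97 and 5.99 in control rats. All 4 rotenone rats lay above the controls there (0.88, 95% interval 0.57 to 1.19, adjusted p = 0.00322), while 12.8% of all genes did not overlap in either direction on day 3. The day 14 difference of Ptgds was 0.046 (95% interval -0.26 to 0.35, adjusted p = 0.94). Mertk, a receptor by which macrophages clear dying cells, read 6.41, 6.70, 6.66 and 6.87 in rotenone rats, against 6.15, 6.48, 6.24 and 6.14 in control rats on day 14. Its groups overlapped, and its call (0.41, 95% interval 0.18 to 0.64, adjusted p = 0.0469) was lost in 19 of the 24 fits that left out 1 array. Averaged over the days, 6 of the 38 genes rose (Pdk4, Angptl4, Sesn1, Rasd1, Mertk and Ptgds) and 2 fell (Crispld2 and Irs2), against 4.63% and 7.22% of all genes. Per1 and Dusp1, 2 rapid receptor targets, gave no call on any day, with differences for Per1 of -0.83 (95% interval -1.70 to 0.042, adjusted p = 0.636), -0.71 (95% interval -1.59 to 0.16, adjusted p = 0.621) and -0.00088 (95% interval -0.87 to 0.87, adjusted p = 1) on days 1, 3 and 14.

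**Figure D5:**
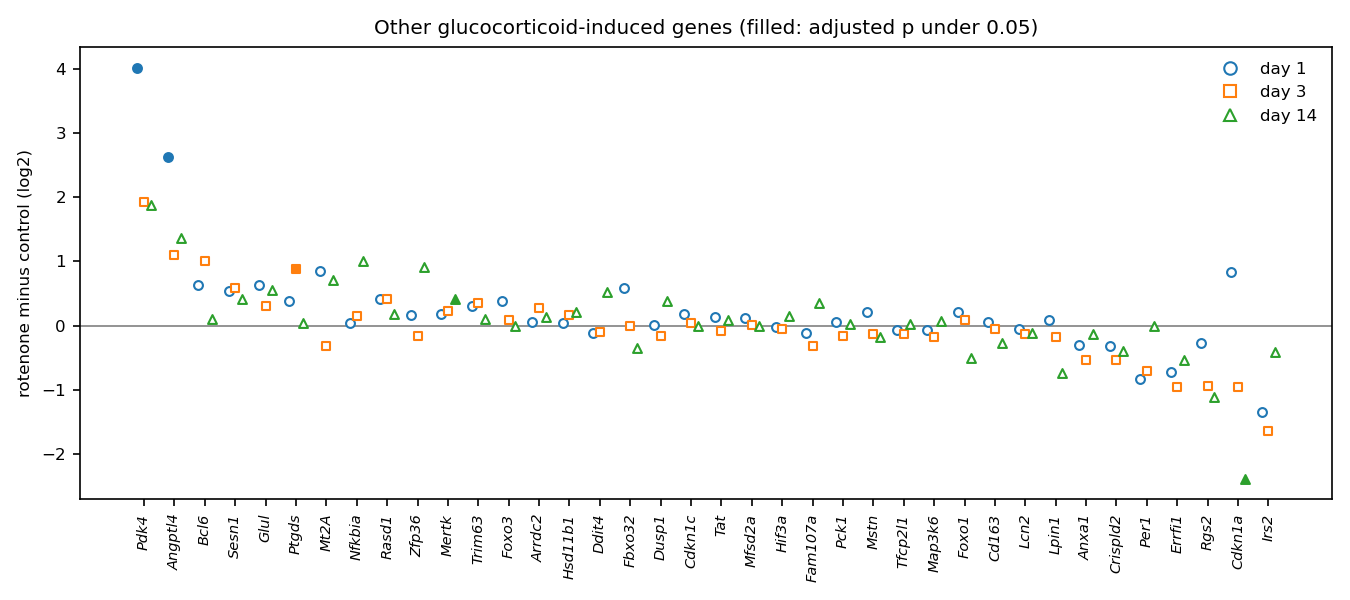
Difference (rotenone minus control, log2 intensity) of the 38 other glucocorticoid-induced genes on day 1 (circles), day 3 (squares) and day 14 (triangles), ordered by their mean difference. Filled symbols have an adjusted p under 0.05: Pdk4 (4.02) and Angptl4 (2.63) on day 1, Ptgds (0.88) on day 3, Mertk (0.41) and Cdkn1a (-2.38) on day 14.

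Of 13 measured genes that hold the receptor, assist it or convert its hormone, none was called on days 1 and 3, with 4 and 6 at an unadjusted p under 0.05, against 11.6% and 15.3% of all genes. On day 14, 3 of the 13 fell, where 3.59% of all genes fell. These were Fkbp4, a co-chaperone that promotes hormone binding (-0.90, 95% interval -1.33 to -0.46, adjusted p = 0.0213), Hsp90aa1, the Hsp90 chaperone that folds the receptor (-0.70, 95% interval -1.01 to -0.39, adjusted p = 0.0127), and Stip1, the adaptor that joins the Hsp70 and Hsp90 chaperones (-0.61, 95% interval -0.87 to -0.36, adjusted p = 0.00769). On day 14 Hsp90aa1 read 15.00, 14.83, 14.89 and 14.45 in rotenone rats, against 15.76, 15.17, 15.64 and 15.39 in control rats. On day 14 Stip1 read 12.56, 12.15, 12.20 and 11.89 in rotenone rats, against 13.07, 12.56, 12.74 and 12.88 in control rats. Hsp90aa1 did not overlap between the groups, which in either direction held for 11.4% of all genes on day 14, the nearest Stip1 values met at 12.56, and Fkbp4 overlapped only through rotenone rat 1. Averaged over the 3 days, 1 of the 13 rose (H6pd) and 5 fell (Nr3c2, Fkbp4, Hsp90aa1, Stip1 and Ncoa1), against 4.63% and 7.22% of all genes. Nr3c2, the mineralocorticoid receptor, which binds corticosterone too, was lower when averaged over the days (-0.27, 95% interval -0.43 to -0.11, adjusted p = 0.0467), and on day 1 its rats did not overlap (-0.49, 95% interval -0.77 to -0.21, adjusted p = 0.149). On day 1, 10.1% of all genes did not overlap in either direction. Hsd11b1, the enzyme that regenerates active hormone inside cells, differed by 0.035 (95% interval -0.26 to 0.33, adjusted p = 0.976) on day 1, 0.16 (95% interval -0.13 to 0.46, adjusted p = 0.793) on day 3 and 0.21 (95% interval -0.087 to 0.50, adjusted p = 0.575) on day 14.

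The inflammatory genes that glucocorticoids repress could hardly be read in this tissue, because none of the 14 lay above the background bound. None was called on days 1, 3 or 14. At an unadjusted p under 0.05 there were 1, 5 and 4 of the 14, against 11.6%, 15.3% and 19.9% of all genes. Among 24 near relatives of the members, which the array could confuse with them or which share their function, none was called on days 1 and 3, and 3 were called on day 14, against 5.82% of all genes. Fkbp4 and Tsc22d4 fell (-1.29, 95% interval -1.68 to -0.91, adjusted p = 0.00049 for Tsc22d4) and Klf11 rose (0.52, 95% interval 0.27 to 0.78, adjusted p = 0.0216). The near relatives at an unadjusted p under 0.05 numbered 6, 8 and 9 of 24 on days 1, 3 and 14, against 11.6%, 15.3% and 19.9% of all genes. Of 8 heart genes linked to Klf15, Bckdha, a subunit of the enzyme that commits branched-chain amino acids to breakdown, rose on day 3 (0.43, 95% interval 0.23 to 0.64, adjusted p = 0.0329) and on day 14 (0.41, 95% interval 0.20 to 0.61, adjusted p = 0.0248). Slc2a4, the insulin-responsive glucose transporter, fell on day 14 (-0.46, 95% interval -0.71 to -0.21, adjusted p = 0.0422). Of all genes, 2.03% were called on day 3 and 5.82% on day 14. None of 12 genes of interleukin 6 signalling, which also drives Cebpd and Cebpb, was called on any single day. At an unadjusted p under 0.05 there were 1, 4 and 2 of the 12, against the same 11.6%, 15.3% and 19.9% of all genes. On the 3-day average 2 of the 24 near relatives rose and 6 fell, and 2 of the 8 genes linked to Klf15 rose. On it 1 of the 14 inflammatory genes and 1 of the 12 interleukin 6 signalling genes fell. Of all genes, 4.63% rose and 7.22% fell on that average.

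Clock genes and immediate early genes, which respond to the hormone among other inputs, were called on some days. Of 17 measured clock genes, 2 rose on day 1, 2 rose and 2 fell on day 3, and 8 rose and 5 fell on day 14. Of all genes, 0.471% rose and 0.638% fell on day 1, 0.643% rose and 1.39% fell on day 3, and 2.23% rose and 3.59% fell on day 14. Nr1d1, a clock repressor, differed by 2.43 (95% interval 1.63 to 3.24, adjusted p = 0.00354) on day 1, and Bmal1, the activator it represses, by -2.78 (95% interval -3.47 to -2.10, adjusted p = 7.02e-05) on day 14. Of 16 immediate early genes none was called on day 1, while Nr4a1, Nr4a2 and Atf3 fell on day 3 (-1.95, 95% interval -2.75 to -1.14, adjusted p = 0.0137 for Nr4a1), and on day 14 Atf3 fell and Ier2 rose. On the 3-day average 7 of the 17 clock genes rose and 4 fell, and 1 of the 16 immediate early genes rose and 5 fell. Of all genes, 4.63% rose and 7.22% fell on that average. The mean level of the 16 immediate early genes ran from 6.79 to 8.30 in control rats of day 3. Atf3 read 9.35 in control rat 3 of that day, 7.30 to 8.08 in the other controls and 6.45 to 6.86 in rotenone rats. In control rat 3 of day 3 all 10 members also lay above their group mean, with a median deviation of 0.27. The part of that control rat in the falls of day 3 was not tested.

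Markers of fibroblasts and of red blood cell precursors differed between the groups on days 3 and 14. Of 8 fibroblast markers 5 fell on day 3 and 4 on day 14, where the mean log2 level of the 8 markers ran from 9.58 to 9.94 in rotenone rats and from 10.95 to 11.53 in control rats. Of 6 erythroid markers 3 fell on day 3 and all 6 on day 14, with a mean level from 6.27 to 8.47 in rotenone rats and from 9.56 to 10.78 in control rats. Of all genes, 1.39% fell on day 3 and 3.59% on day 14. No marker of cardiomyocytes, endothelium, macrophages, lymphocytes, fat cells or smooth muscle was called on any single day. Between 0 and 3 of the 6 to 9 markers of each list had an unadjusted p under 0.05, against 11.6%, 15.3% and 19.9% of all genes on days 1, 3 and 14. The largest counts were 3 of 7 for smooth muscle on day 1 and 3 of 7 for endothelium on day 14. On the 3-day average 1 endothelial marker rose, and 1 smooth muscle marker rose and 1 fell. Of all genes, 4.63% rose and 7.22% fell on that average. In whole tissue, fewer cells of a type and less RNA per cell cannot be told apart, and the part of these markers in the results above was not tested. On day 1 the median difference was -0.20 for the fibroblast markers and 0.21 for the erythroid markers, with 0 called in either list.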

How the data were processed

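Left ventricle of 24 rats, 4 per combination of feed and day, was hybridised to Affymetrix Rat Transcriptome Array 1.0 chips. The deposited table holds linear intensities, 1 value per transcript cluster and array, which the authors had made from the scans with a correction for GC content, signal space transformation and RMA (robust multi-array average). For software versions, genome build and annotation release the entry is: not given in the sources used here. Values between 0.154 and 999973 were taken to log2 with no further normalization. Of 70580 rows, 1738 control probes were left out. A gene name was taken from the platform annotation where a row had 1 symbol (23446 rows, 22093 genes), 505 rows with several symbols were named for no gene, and 1 symbol was updated through its Entrez identifier. A gene with several rows was read from the one with the highest mean.

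Differences were fitted with limma 3.58.1 in R 4.3.3, with 1 mean per group and 1 shared spread over all 24 arrays, and p-values were adjusted by the Benjamini-Hochberg method over 68842 transcript clusters. The procedure was run on simulated data with known changes and noise independent between clusters. That check does not bear on the deviations that genes shared within rats. No spread other than that between the 4 rats of a group enters these p-values, and their number limits the precision. The 95th percentile of the log2 values of 1153 negative control probes served as the background bound. No filter on low values was applied in the fit, and 5114 genes had means above the bound.

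The members and the gene lists were chosen with earlier results of these data known, so no p was adjusted over a list and no list was tested as a set. All members are given. Of each other list, genes called on any of the 3 days were named, up to the 6 with the smallest p, besides genes that define the list, and the 5 genes most like Fkbp5 were chosen by Pearson r over the 24 arrays among genes above the bound. Promoter sequences were matched by symbol to a RefSeq table (GRCr8) and searched on both strands for the glucocorticoid response element, its left part AGAACA, the metal response core and the E-box CACGTG. Figures were drawn with matplotlib 3.10.9. Alternatives covered scaling, an added constant of 16, filters at the bound and at the median, the mean over a gene's rows, limma settings, the fit to only the groups compared, a minimum change of 1.8-fold, the factorial test of the methods, the rat number as a block and each array left out in turn. Leaving out rat 4 of every group and reading the second Mt1 cluster were added after seeing the data.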

Additional observations from a re-analysis of the deposited data

Results flagged for a closer look

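In groups of 4 rats, a value was singled out where its gap to the nearest rat exceeded Dixon's 95% limit for the group's range. This met 6 of 90 groups of values, 4 of them among the 60 of the 10 members, and chance alone singles out about 1 group in 20. Control rat 4 of day 14 held the lowest Klf9 value, 10.19, with the next at 11.18. Klf15 had its lowest values in control rat 4 of day 1 (5.88, next 6.37) and in control rat 4 of day 14 (5.83, next 6.57), and Cebpb in rotenone rat 3 of day 1 (6.09, next 6.47). Pdk4 read 14.38 in rotenone rat 4 of day 14, with the next rat at 16.33. Angptl4 read 6.40 in control rat 3 of day 3, with the next at 5.57.

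For Cdkn1a, all 4 rotenone rats lay above the controls on day 1 (difference 0.83) and below them on day 14 (difference -2.38), and the test of a difference between days gave an adjusted p of 0.121. The groups did not overlap, in either direction, for 10.1% of all genes on day 1 and 11.4% on day 14. The second transcript cluster annotated to Mt1, which was not used for the members' counts, was higher with rotenone when averaged over the days (0.32, adjusted p = 0.011).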

How the results depend on the processing

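The number of members called was 0 on days 3 and 14, for the test of the days against each other and for the controls of day 14 against those of day 1, in each setting run. On day 1 it was 0 except with the mean of a gene's transcript clusters, where 1 was called, Mt1 (0.96, adjusted p = 0.0328). Averaged over the days the main count of 1, Mt1, became 2, with Fkbp5 added, under the filter at the median (adjusted p = 0.0341), the mean of a gene's clusters (0.0265), array weights (0.0336) and the replicate block (0.0489). It became 0 under the filter at the bound, which leaves Mt1 out of the test, and under the methods' factorial test with its own thresholds. Leaving out 1 array at a time gave 1 to 2. Over all alternatives the adjusted p of Fkbp5 ran from 0.0107 to 0.182 and that of Mt1 from 0.000208 to 0.0124, the highest without rat 4 of every group (1.34). No result changed sign past the threshold. With array medians set equal, the Nr3c1 differences of days 1 and 14 turned to -0.046 and -0.011, and with quantile normalization the Tsc22d3 difference of day 1 turned to 0.049.

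Of the 38 other glucocorticoid-induced genes, the main counts were 2, 1 and 2 on days 1, 3 and 14. On day 1 the count was 1 with the filter at the bound, 1 with the methods' test and 0 without rat 4 of every group, where Pdk4 (3.90, adjusted p = 0.0593) and Angptl4 (2.98, adjusted p = 0.0552) were not called. On day 3 it was 2 with the filter at the median, 3 with the mean of clusters, 2 with the replicate block, 0 with only the arrays compared and 0 with the methods' test. On day 14 it was 1 with equal array medians, 1 with quantile normalization, 4 with the filter at the bound, 4 with the filter at the median, 5 with the mean of clusters, 1 with the minimum change of 1.8-fold, 0 with only the arrays compared, 1 with the methods' test and 1 without rat 4 of every group. Leaving out 1 array gave 2 on day 1 each time, 1 to 2 on day 3 (2 without control rat 3 of day 3) and 1 to 4 on day 14 (4 without rotenone rat 1 of day 14). Mertk was the call of day 14 lost with equal array medians (adjusted p = 0.173), and the cause was not tested for any of these changes.

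Over all transcript clusters the main counts of 337, 578 and 1989 on days 1, 3 and 14 and 3849 for the average became 68, 123 and 118 on the 3 days with only the arrays compared, which have fewer rats to estimate the spread from, and 33, 267, 367 and 1992 without rat 4 of every group. With the minimum change of 1.8-fold they were 128, 232, 513 and 239. With equal medians they were 380 on day 3 and 1291 on day 14, and with the added constant 519 on day 1. The filter at the bound gave 643 and 936 on days 1 and 3, the filter at the median 654, 1211 and 3303 on the 3 days, and the mean of clusters 619 and 1226 on days 1 and 3. Without 1 array the counts ran from 172 (without rotenone rat 4 of day 1) to 416 on day 1, from 301 to 772 on day 3 and from 885 to 3225 on day 14. Same-numbered rats had correlations of their deviations between -0.641 and 0.518, over 0.1 in 5 of 12 pairs, so the numbers were not treated as pairs, and the replicate block called 297, 519 and 1794 clusters on the 3 days. These correlations set rotenone against control within a day and do not bear on what the control groups of different days may share. A member below the background bound carries a difference that the array may understate.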
